A study of Mus musculus with 12 samples.

Results

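Glucose uptake, glycolysis and the response to low oxygen were followed through 34 genes in 12 mouse angiosarcoma tumors. The genes were taken by name: glucose and lactate transporters, the enzymes of glycolysis, and genes of the hypoxia-inducible factor (HIF) response, out of 54232 genes in the table. The tumors were SVR xenografts. SVR is a mouse line of islet endothelial cells transformed with activated H-ras and SV40 large T antigen, and it was injected under the skin of athymic nude mice aged 8 to 12 weeks, which lack mature T cells. The comparison covers 4 groups of 3 tumors each. Control mice were given vehicle (cremaphor, polyethylene glycol and tween), and the others received trametinib at 1 mg/kg (an inhibitor of the kinase MEK), cediranib at 3 mg/kg (an inhibitor of the VEGF receptors), or both drugs at these doses (the combination). All were dosed daily by gavage from 3 to 7 days after implantation, until a tumor ulcerated or passed 1 cm. The labels give the strain of the SVR cells as C57BL/6. The study ran another experiment with a common day of collection, and the labels do not say from which the sequenced tumors came, so the time on treatment may differ between groups. Tumor, blood vessels, stroma and skin were all mouse, so the counts pool them, and fewer cells of a type and less RNA per cell cannot be told apart. Nothing in the labels gives more on how tumors relate to each other, so p-values measure the spread between these tumors.

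Glycolysis splits glucose to pyruvate in the cytosol. Glucose enters through facilitative transporters, is trapped by hexokinase, passes the committed step at phosphofructokinase, and leaves as pyruvate, which is either reduced to lactate and exported or oxidized in mitochondria. HIF is a pair of proteins, an oxygen-sensitive alpha subunit and the stable partner Arnt. When oxygen is present, prolyl hydroxylases (Egln1, Egln3) mark the alpha subunit for destruction. When oxygen is scarce, it accumulates and raises many glycolytic genes as well as Car9, Bnip3, Ndrg1 and Egln3 itself. Its messenger RNA is a poor guide to its protein. VEGF receptor inhibitors act on blood vessels, and MEK lies downstream of RAS in the pathway that SVR cells carry in an activated form. The comparisons therefore ask whether either drug left a trace in the genes of oxygen or glucose use.

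HIF binds a short core, written ACGTG or GCGTG on either strand (CACGT or CACGC when read on the other). The 250 bases before the RefSeq start site (mouse build GRCm38.p6) are printed for 3 of the genes, to show how this core sits ahead of the glucose transporter that served as marker of the list, of the hexokinase on which the results below turn, and of a HIF target with several copies. Each reads 5′ to 3′ along the gene, with every match in capitals. Slc2a1 (chr4:119108495-119108744, plus strand) held 2 matches, Hk2 (chr6:82774455-82774704, minus strand) held 2 and Bnip3 (chr7:138909507-138909756, minus strand) held 5.
Slc2a1: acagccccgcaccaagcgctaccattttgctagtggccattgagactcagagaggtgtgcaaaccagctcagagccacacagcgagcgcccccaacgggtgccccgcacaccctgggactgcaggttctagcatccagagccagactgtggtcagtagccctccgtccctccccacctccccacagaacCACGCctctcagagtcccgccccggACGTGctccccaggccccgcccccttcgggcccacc
Hk2: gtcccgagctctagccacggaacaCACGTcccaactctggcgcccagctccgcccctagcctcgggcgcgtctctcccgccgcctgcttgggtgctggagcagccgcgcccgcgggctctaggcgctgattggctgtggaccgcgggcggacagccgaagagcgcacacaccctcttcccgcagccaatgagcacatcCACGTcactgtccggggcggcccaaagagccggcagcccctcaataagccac
Bnip3: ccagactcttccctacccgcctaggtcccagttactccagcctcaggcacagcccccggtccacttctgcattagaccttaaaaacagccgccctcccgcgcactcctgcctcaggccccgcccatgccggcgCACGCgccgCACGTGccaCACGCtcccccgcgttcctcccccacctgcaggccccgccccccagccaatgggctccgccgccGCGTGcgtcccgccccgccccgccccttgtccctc
The palindrome CACGTG counts as a match on both strands, as in Bnip3. A match was present in 36 of 44 windows of the 31 genes of the list found in the RefSeq table (81.8%), against 12679 of 32851 windows of all genes (38.6%). Of these 31 genes, 28 had a match in at least 1 window. Slc2a3, Ndrg1 and Epas1 are named only. The last bases of the Slc2a1 window lie inside the gene as the deposited table bounds it. A match describes letters in a window and is not a measured binding site.

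The libraries were made from whole-tumor RNA by exome capture, in which probes pull out coding fragments, and held 9478865 to 11666094 counts. Values are given as CPM, the counts scaled to a common library size after TMM normalization. Where no count was found, up to 3 counts remain possible, equal to 0.251 to 0.349 CPM by library, for counting error only. The treatment was visible in the 4 genes fixed as its check, Egr1, Dusp6, Etv5 and Spry4, which MEK signaling switches on. All 4 fell with trametinib, with log2 fold changes of -4.49, -3.70, -3.67 and -3.14, and all 4 fell with the combination. The fall was smaller in the combination. Against trametinib alone, 3 of the 4 passed as higher there, with a median log2 fold change of 1.42 over the 4 genes. Mean Dusp6, as an example, was 44.4 CPM in controls, 3.37 CPM with trametinib and 11.8 CPM in the combination. None of them passed for cediranib against control. Libraries also stood apart in tissue content. Summed markers of skeletal muscle reached 17800 CPM in control 2 and 24900 CPM in trametinib 2, 2080 CPM in trametinib 3, and 19.8 to 515 CPM in the other 9 libraries. Summed epidermal markers were 2920 to 4410 CPM in combination tumors, 4.02 to 9.71 CPM in trametinib tumors, 7.98 to 610 CPM in controls and 11.5 to 2830 CPM in cediranib tumors. Endothelial markers summed to 248 to 485 CPM in controls, 153 to 382 CPM with cediranib, 110 to 171 CPM with trametinib and 78.5 to 139 CPM in the combination. SVR cells are themselves endothelial, so these markers do not tell tumor cells from host vessels. The part of tissue content in the results below was not tested except where a value is given.

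Of the 34 genes, 31 passed the filter on low counts and entered the test among 12897 genes. Ldhb, the heart-type lactate dehydrogenase subunit, had 2 counts in all 12 libraries together. Ankrd37, a small HIF target, had 48 counts, and Adm, which encodes the vasodilator adrenomedullin, had 63. The 2 genes chosen as markers of the list differed widely in level. Slc2a1, the glucose transporter GLUT1, gave 142 to 471 CPM. Car9, the membrane carbonic anhydrase used as a hypoxia marker in tumors, gave 0.303 to 1.91 CPM, from 3 to 21 counts a library, so that it was close to the detection limit in control 3. Of the 2 markers, Slc2a1 thus bore the label of the list, and Car9 hardly did. Ankrd37 and Adm were also too low to test. Other hypoxia genes were well measured, with Egln3 at 168 to 468 CPM, P4ha1 at 126 to 232 CPM, Bnip3 at 36.5 to 100 CPM and Ndrg1 at 10.4 to 59.6 CPM.

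Per kilobase of the deposited gene length, the levels spanned a wide range, although capture probes limit how far levels of different genes can be compared. Pkm, the pyruvate kinase of the last step, had a median of 904 CPM per kb. Gapdh and Aldoa followed at 265 and 255 CPM per kb, and Pgk1 at 188 CPM per kb. The oxygen sensor Egln3 stood at 124 CPM per kb, above Slc2a1 and Hif1a at 72.2 and 72.8 CPM per kb. At the lower end Slc2a3, the high-affinity transporter GLUT3, had 0.16 CPM per kb. For several steps 1 form dominated, per kb, in all 12 tumors. Slc2a1 made up 99.3% to 99.9% of the pair with Slc2a3. Ldha made up 99.8% to 100% of the pair with Ldhb. Aldoa was 94.8% to 99.2% of the aldolases listed, Eno1 was 96.8% to 99.2% of the enolases listed, and Hif1a was 90% to 96.2% of the pair with Epas1 (HIF-2 alpha). Other steps were shared between forms. Of the hexokinases Hk1, the housekeeping form, held 62.9% to 87.2%, and Hk2, the inducible form, held the rest, with group means of 27.5% in controls, 17.8% with trametinib, 32.6% with cediranib and 24.7% in the combination. Among the phosphofructokinases Pfkm held 43.8% to 79.8% and Pfkl 18.7% to 51.6%. Of the pair of hydroxylases Egln1 held 25.3% to 53.0%, with group means of 37.0% in controls, 45.7% with trametinib, 30.5% with cediranib and 45.4% in the combination.

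**Figure D1:**
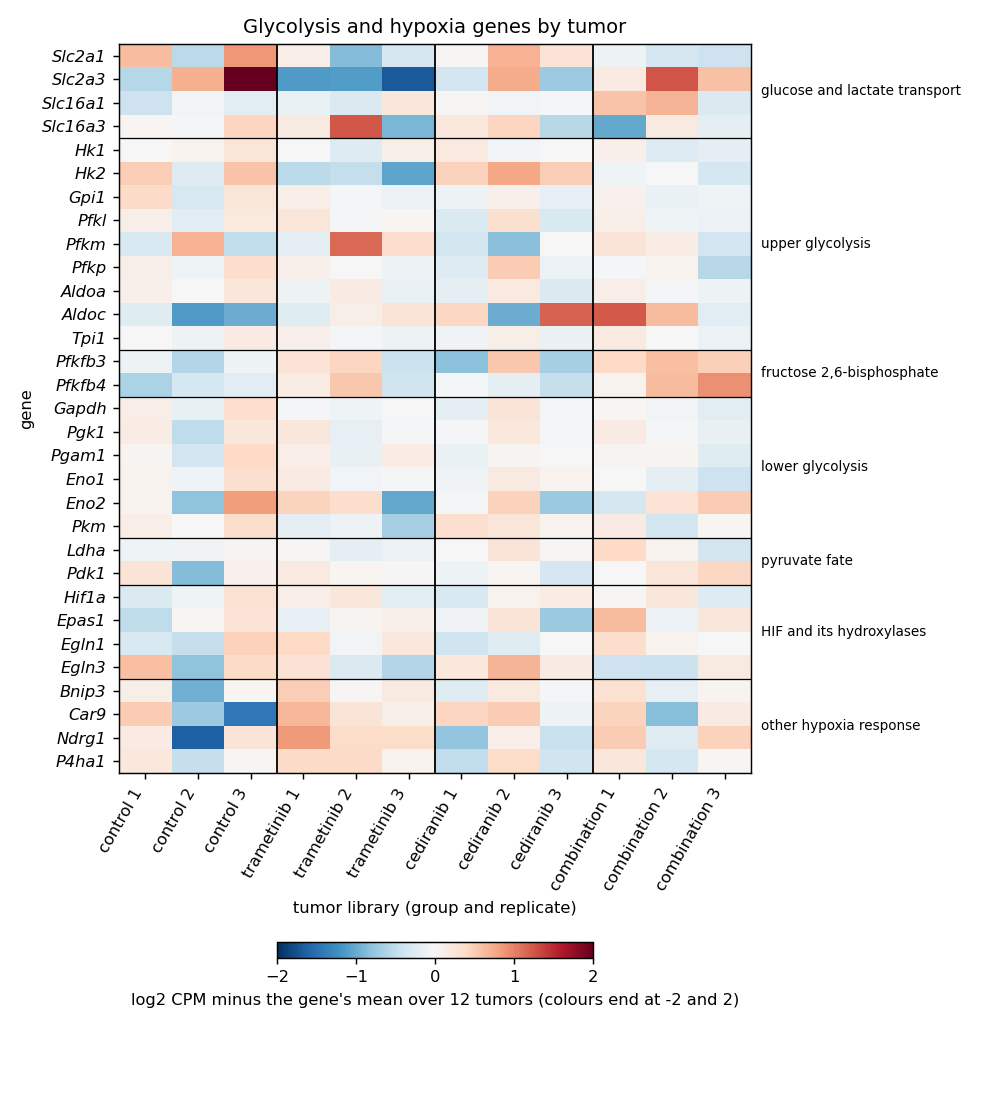
Each cell is a gene's log2 CPM in 1 tumor minus that gene's mean over the 12 tumors, with rows grouped by role and columns by treatment; colours end at -2 and 2. Control 2 is pale to blue in most rows, Hk2 is blue in the trametinib columns, and most enzyme rows are close to white throughout.

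Cediranib alone left no detectable change in these genes. None of the 31 genes passed the test against control (edgeR quasi-likelihood, Benjamini-Hochberg FDR of at most 0.05), and across all genes 0% were called, with or without the log2 fold change of 1.5 that the study asked for (0% for both). With DESeq2 and with edgeR's likelihood ratio test, 0 of the 31 were called as well, while these tools called 12 and 16 genes of the whole table. At an unadjusted p under 0.05 there was 1 gene of the 31, against 4.32% of all genes. It was Aldoc, an aldolase best known from brain, at a log2 fold change of 1.19 with an adjusted p of 0.999 in edgeR.

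Hypoxia genes with many counts had intervals that spanned 0. Slc2a1 was 396, 178 and 471 CPM in the controls and 265, 418 and 314 CPM with cediranib. The cediranib tumors lay inside the range of the controls. The log2 fold change was -0.07 (95% interval -0.78 to 0.64). For Egln3, a HIF target that also restrains HIF, control tumors gave 442, 168 and 379 CPM and cediranib tumors 337, 468 and 328 CPM, a log2 fold change of 0.20 (-0.52 to 0.92). Bnip3, a mitophagy receptor, differed by 0.17 (-0.37 to 0.72), and Pdk1, the kinase that closes the entry of pyruvate into mitochondria, by -0.03 (-0.55 to 0.48). Car9 was 1.70, 0.608 and 0.303 CPM in controls and from 1.05 to 1.70 CPM with cediranib. These groups overlapped, and the interval of Car9, from -0.56 to 1.96, would hold a change of either sign. In total 28 of the 31 genes differed by less than 0.5 on the log2 scale, against 84% of all genes, and for 24 of 31 the interval lay within 1 on either side of 0, against 65.7% of all genes. None of the 31 had groups that did not overlap, which 7.76% of all genes did.

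With trametinib, Hk2 and Slc2a3 were lower than in controls, and 0 of the 31 genes were called higher. These 2 of 31 genes are set against 6.12% of all genes called in either direction and 3.47% called lower, so the share of the list is close to the background for calls in either direction. The median log2 fold change of the 31 genes was 0.02, against 0.01 for all genes, and 24 of 31 differed by less than 0.5.

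Hk2, which phosphorylates glucose at the mitochondrial surface and is the hexokinase form that tumors commonly induce, was measured at 79.5, 47.1 and 83.5 CPM in the controls and at 38.6, 40.4 and 27.0 CPM with trametinib. Each trametinib tumor lay below each control. The log2 fold change was -0.99 (SE 0.218, 95% interval -1.46 to -0.51, adjusted p = 0.0195 in edgeR), from group means of 70.0 ± 19.9 to 35.3 ± 7.24 CPM (SD, n = 3). This call was lost without control 1 (adjusted p = 0.058 in edgeR), control 3 (0.0814) or trametinib 3 (0.0707), and when only these 6 libraries were fitted (0.0616). Without both muscle-rich libraries the log2 fold change was -1.31 with an adjusted p of 0.0115 in edgeR.

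Slc2a3 carries glucose at low concentrations and is abundant in neurons and some white blood cells. It gave 0.766, 2.13 and 6.06 CPM in controls and 0.454, 0.466 and 0.251 CPM with trametinib. The groups did not overlap, but the trametinib values rested on 5, 4 and 3 counts. Slc2a3 passed the filter on low counts through tumors of the other groups, and it was not tested when only the trametinib and control libraries were fitted. The log2 fold change was -2.91 (SE 0.765, adjusted p = 0.0444 in edgeR), and Slc2a3 was the only gene of the list beyond the study's fold threshold, which 2.40% of all genes passed. Without control 3, its highest library, the log2 fold change was -1.87 and the adjusted p 0.192 in edgeR. The call was also lost without control 2 or without any 1 of the trametinib tumors.

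Slc2a1 pointed the same way without passing. Trametinib tumors had 284, 142 and 205 CPM, and 2 of them lay above control 2. The log2 fold change was -0.73 (-1.44 to -0.02, adjusted p = 0.229 in edgeR). Pkm was 4770, 4320 and 5580 CPM in controls and 3870, 4080 and 2740 CPM with trametinib. Its groups did not overlap, and the log2 fold change of -0.46 (-0.84 to -0.07) had an adjusted p of 0.167. Ndrg1, a stress-response gene raised by hypoxia and by other signals, was the 1 gene of the list in which every trametinib tumor lay above every control. Controls had 37.1, 10.4 and 39.5 CPM, trametinib tumors 59.6, 42.7 and 42.4 CPM, and the log2 fold change of 0.73 did not pass (adjusted p = 0.345 in edgeR). In all, 4 of the 31 genes had groups that did not overlap, 1 higher and 3 lower, against 25.8% of all genes.

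**Figure D2:**
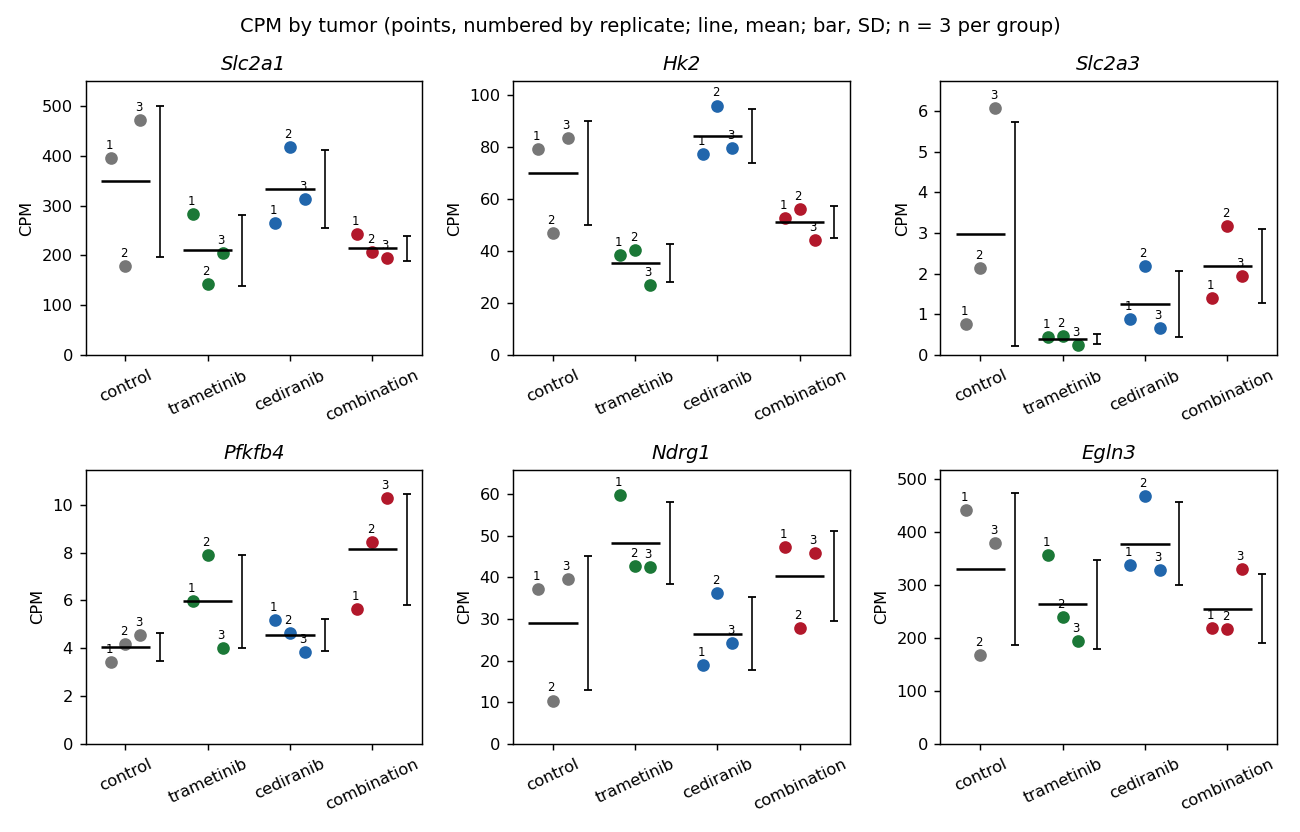
CPM of 6 genes in each tumor on linear axes that start at 0; numbered points are replicates, the line is the group mean and the bar the SD, with 3 tumors a group. Hk2 separates the trametinib tumors (27.0 to 40.4 CPM) from the controls (47.1 to 83.5 CPM), while Slc2a1 and Egln3 overlap, since control 2 is low in both.

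In the combination the one call lay in the regulation of phosphofructokinase. Pfkfb4, a bifunctional enzyme that makes and breaks fructose 2,6-bisphosphate, the activator of phosphofructokinase, was higher than in controls. It measured 3.41, 4.16 and 4.55 CPM in controls and 5.66, 8.44 and 10.3 CPM in the combination, with no overlap. The log2 fold change was 1.01 (SE 0.292, 95% interval 0.38 to 1.65, adjusted p = 0.0479 in edgeR), just inside the threshold. Of all genes, 9.98% were called in either direction, 4.85% were called higher, and 3.61% passed with the study's fold threshold, which none of the 31 did. The call on Pfkfb4 was lost without any 1 of the controls (adjusted p of 0.105 to 0.117 in edgeR) and without combination 2 (0.111) or combination 3 (0.155). With an epidermal score in the model, the log2 fold change was 1.11 and the adjusted p 0.34. The call was also lost without both muscle-rich libraries (1.04, adjusted p = 0.107 in edgeR) and with only the 6 libraries compared (0.0634), a fit that called Pfkfb3 instead. The score and the combination group go together, as the marker sums above show.

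Its sister gene Pfkfb3, the form with the strongest kinase activity, was 38.2, 27.4 and 38.3 CPM in controls and 54.2, 62.4 and 57.0 CPM in the combination. The groups were apart, at a log2 fold change of 0.74 (0.03 to 1.45), but the adjusted p was 0.169 in edgeR. Aldoc was 14.0, 7.40 and 8.18 CPM in controls and 38.9, 25.6 and 14.3 CPM in the combination, with a log2 fold change of 1.41 (adjusted p = 0.0882 in edgeR). The lowest combination tumor stood barely above the highest control. With the epidermal score in the model, this log2 fold change was 0.12. Slc16a1, the lactate transporter MCT1, differed by 0.61 (0.10 to 1.11, adjusted p = 0.116). Groups did not overlap for 3 of the 31 genes, Pfkfb4, Pfkfb3 and Aldoc, all higher, against 31.3% of all genes.

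Mean Hk2 was 51.2 ± 6.20 CPM in the combination, between trametinib and control, and mean Slc2a1 was 214 ± 24.8 CPM, near the 210 ± 71.2 CPM of trametinib (SD, n = 3). By tumor, Hk2 was 52.9, 56.3 and 44.3 CPM in the combination, a log2 fold change of -0.45 from control (-0.92 to 0.02, adjusted p = 0.199 in edgeR). Slc2a1 was 242, 206 and 195 CPM, and its log2 fold change of -0.70 (-1.41 to 0.01) had an adjusted p of 0.188. Without both muscle-rich libraries, control 2 among them, Slc2a1 passed at -1.02 (adjusted p = 0.0309 in edgeR).

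Comparing the combination with each single drug gave no call among the 31 genes. Against trametinib, 0.969% of all genes were called, 0.675% with the fold threshold. Before adjustment 2 genes of the list, Slc2a3 and Hk2, had p under 0.05, and both also had separated groups, higher in the combination, against 24.2% of all genes. Slc2a3 was 1.41, 3.18 and 1.95 CPM in the combination, a log2 fold change of 2.47 over trametinib (adjusted p = 0.129 in edgeR), and Hk2 differed by 0.54 (adjusted p = 0.226). DESeq2 and edgeR's likelihood ratio test each called 1 of the 31 here, Slc2a3, while they called 717 and 634 of all genes. Against cediranib, 7.68% of all genes were called, 2.45% with the fold threshold. Hk2 was 77.3, 96.1 and 79.7 CPM with cediranib, above every combination tumor, and the log2 fold change of -0.72 (-1.19 to -0.25) had an adjusted p of 0.0638. DESeq2 and the likelihood ratio test each called 1 of the 31, Hk2, lower in the combination, while they called 1526 and 1281 of all genes. Slc2a1 at -0.63 and Pfkfb4 at 0.84 were the other genes with separated groups, 3 in all, against 28.4% of all genes.

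The interaction asks whether cediranib acted otherwise in the presence of trametinib than alone. No gene of the list and 0% of all genes passed, with or without the fold threshold (0% in both). DESeq2 called 0 of the 31 and 37 of all genes, and the likelihood ratio test 0 and 28. Before adjustment 1 gene of the list, Slc2a3, was under 0.05, with an interaction of 3.71 on the log2 scale (SE 1.02, adjusted p = 0.543 in edgeR). It rests on the few counts in the trametinib tumors.

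Since the list showed no interaction past the test, 2 further contrasts, chosen after the data were seen, set the 6 tumors given a drug against the 6 not given it. They use the same libraries as the comparisons above and are no independent evidence. For trametinib, Hk2 was lower by 0.86 on the log2 scale (SE 0.154, 95% interval -1.19 to -0.52, adjusted p = 0.00281 in edgeR). The 6 tumors without the drug ran from 47.1 to 96.1 CPM and the 6 with it from 27.0 to 56.3 CPM, so they overlapped through control 2 alone. This difference passed in 20 of 20 alternative settings, between -1.02 and -0.78, including without control 2 (-0.97) and without both muscle-rich libraries (-1.02). Pfkfb4 was higher by 0.70 (SE 0.206, adjusted p = 0.0372 in edgeR), a call kept in 8 of 20 settings. Across all genes 16.7% were called, 8.54% lower and 8.20% higher, and 3.30% with the fold threshold. The list, at 1 lower and 1 higher of 31 and none past the fold threshold, stood below that background.

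Slc2a1 lay near the threshold in this contrast. Its log2 difference was -0.68 (-1.18 to -0.18, adjusted p = 0.0634 in edgeR). It passed without control 2, at -0.84 with an adjusted p of 0.0106, without trametinib 1 (0.0418), and without both muscle-rich libraries (-0.73, 0.0131). DESeq2 and the likelihood ratio test also called it, at adjusted p of 0.0154 and 0.0315. Pkm at -0.36 (adjusted p = 0.0724), Ndrg1 at 0.67 (0.144) and Pfkfb3 at 0.53 (0.15) did not pass in edgeR. Of these, DESeq2 called Pkm alone. None of the 31 genes separated the 6 tumors from the other 6, while 7.99% of all genes did. For cediranib the same contrast called none of the 31 genes, and 0.775% of all genes, or 0.620% with the fold threshold. Of all genes 0.442% separated the 6 tumors from the other 6, and none of the list did. The lowest p of the list there belonged to Aldoc and Hk2, higher by 0.90 and 0.40, with adjusted p of 0.237 and 0.239.

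**Figure D3:**
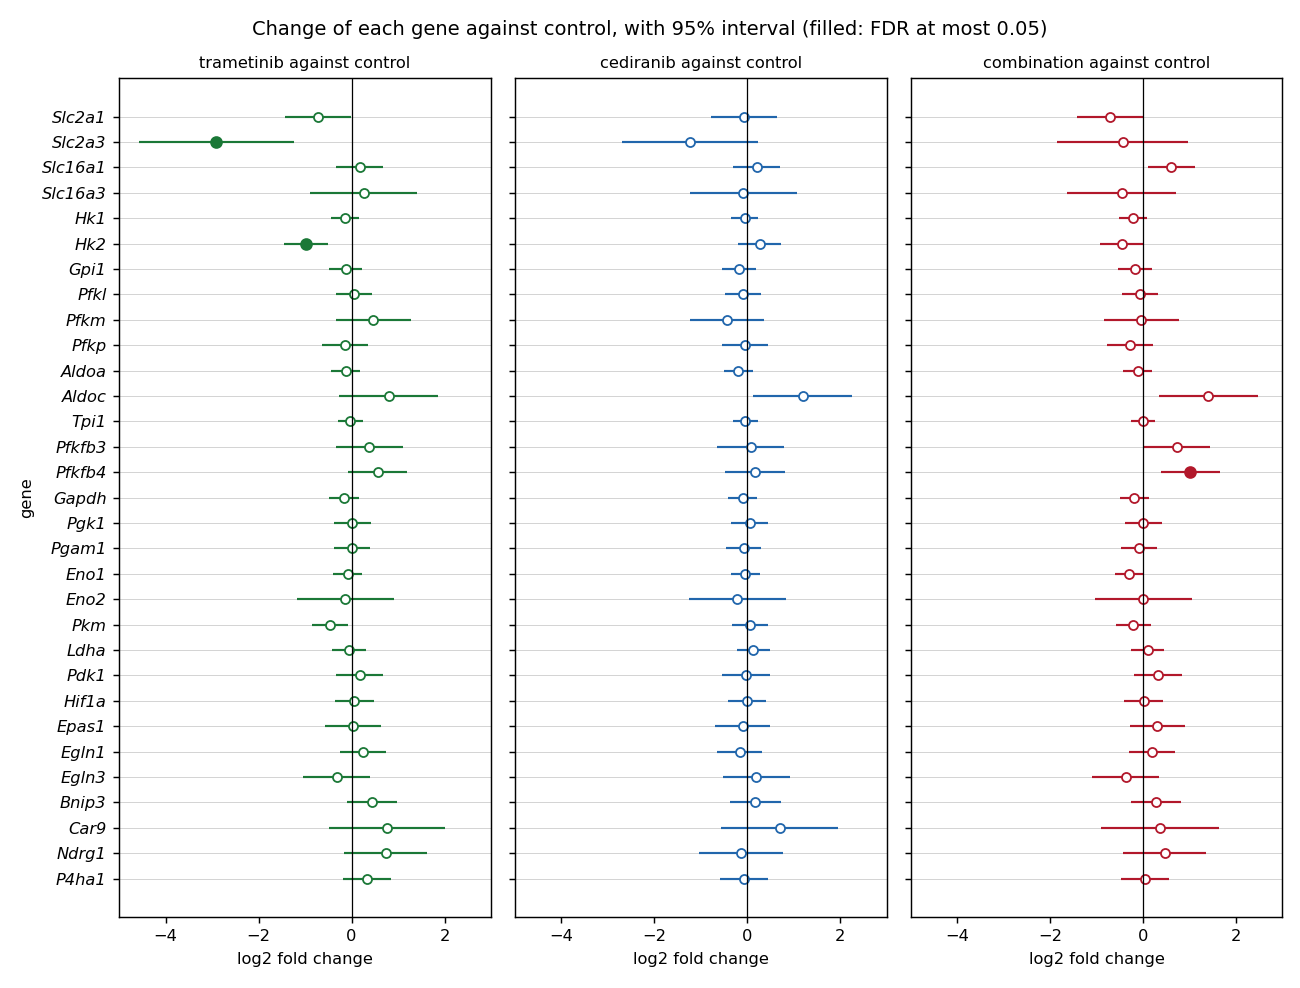
Log2 fold change of the 31 tested genes against control with 95% intervals, for trametinib, cediranib and the combination, which share the 3 control tumors; filled points passed the FDR of 0.05. Filled points are Slc2a3 and Hk2 with trametinib and Pfkfb4 with the combination, and the intervals of most enzymes span 0 narrowly.

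Apart from Hk2, Pfkfb3, Pfkfb4, Aldoc and Pkm, given above, the remaining enzymes of glycolysis had no call and mostly small differences. Hk1 stood between 202 and 284 CPM in all tumors, and its log2 fold change against control was -0.14, -0.06 and -0.21 for trametinib, cediranib and the combination. Gpi1, the isomerase after hexokinase, gave -0.13, -0.18 and -0.17. Tpi1, which interconverts the triose phosphates, was the steadiest, at -0.03, -0.04 and 0.00, and its interval for the combination ran only from -0.26 to 0.27. The aldolase Aldoa gave -0.13, -0.19 and -0.11. In the lower part of the pathway, Gapdh was between 966 and 1410 CPM, and Pgk1, Pgam1 and Eno1, the kinase, mutase and enolase steps, had 9 values between -0.30 and 0.05. Eno1 in the combination was the farthest, at -0.30 (-0.61 to 0.01, adjusted p = 0.194 in edgeR). Eno2, the neuronal enolase, lay between 3.18 and 12.1 CPM and had wide intervals. Ldha, which makes lactate, was 65.6 to 112 CPM and differed from control by -0.06, 0.13 and 0.10. Slc16a3, the lactate exporter MCT4 known as a HIF target, lay between 0.909 and 5.12 CPM and differed by 0.26, -0.09 and -0.46, with intervals wider than 1 on either side.

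Among the HIF genes, the messenger of Hif1a varied little. It was 342, 392 and 515 CPM in controls, 456, 488 and 360 CPM with trametinib, 337, 438 and 463 CPM with cediranib and 421, 488 and 350 CPM in the combination. The 4 groups overlapped fully. Epas1 lay between 16.3 and 42.2 CPM, with differences of 0.03, -0.10 and 0.31. Egln1, the main oxygen sensor, differed by 0.25, -0.16 and 0.19, and Egln3 by -0.32, 0.20 and -0.37. P4ha1, a collagen prolyl hydroxylase subunit that HIF raises, differed by 0.33, -0.07 and 0.04. Bnip3 differed by 0.44 with trametinib (-0.10 to 0.98, adjusted p = 0.349 in edgeR), 0.17 with cediranib and 0.27 in the combination. For these genes, differences of 2-fold in either direction lay outside the 95% interval for Hif1a, Epas1, Egln1, Bnip3 and P4ha1 in each comparison with control, but not in every comparison for Egln3, Car9 and Ndrg1.

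Control 2, a muscle-rich library, stood apart in the list. It was the lowest of the 3 controls for 22 of the 31 genes (71.0%), against 30.2% of all genes. Control 3 was the highest for 22 of the 31 genes (71.0%), against 34.2% of all genes. Trametinib 2, also muscle-rich, was the lowest of its group for 11 of the 31 genes (35.5%), against 33.3% of all genes. Cediranib 2 was the highest of its group for 23 of 31 genes (74.2%), against 34.8% of all genes. As examples picked after their values were seen, Ndrg1 was 10.4 CPM in control 2 against 37.1 and 39.5 CPM in the other controls, and Bnip3 was 36.5 CPM against 76.9 and 72.7 CPM. Control 2 lay between the other controls for Hif1a, Epas1 and Car9.

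Pfkm, the muscle form of phosphofructokinase, was high where muscle markers were high. It was 116, 233 and 102 CPM in controls, 126, 313 and 182 CPM with trametinib, 111, 79.7 and 142 CPM with cediranib and 171, 159 and 110 CPM in the combination. The 3 libraries with the largest summed muscle markers, trametinib 2, control 2 and trametinib 3, also had the 3 largest Pfkm values, in the same order. The log2 fold change with trametinib was 0.47 (-0.34 to 1.27, adjusted p = 0.539 in edgeR). Pfkl, the liver form, showed no such pattern and differed by 0.05, -0.09 and -0.06, and Pfkp, the platelet form, by -0.14, -0.05 and -0.29.

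**Figure D4:**
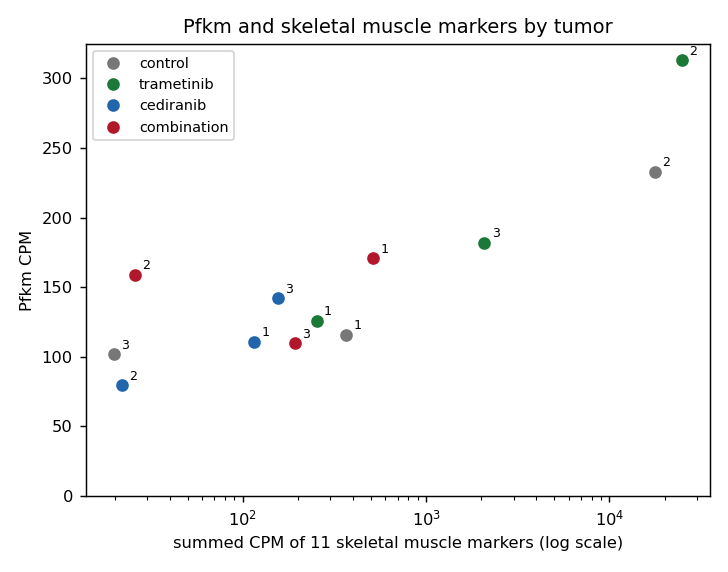
Pfkm in CPM (linear, from 0) against the summed CPM of 11 skeletal muscle markers (log axis) in each of the 12 tumors, coloured by treatment and numbered by replicate. Trametinib 2 and control 2, at 24900 and 17800 CPM of muscle markers, have the highest Pfkm, at 313 and 233 CPM.

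Other genes of the same pathways were counted from fixed lists. Of 37 further HIF targets named, 32 were tested, and 0 passed for cediranib against control. With trametinib 2 were higher and 2 lower, while 6.12% of all genes were called in either direction. With the combination 2 were higher and 5 lower, while 9.98% of all genes were called, 626 higher and 661 lower of 12897. The shares of the list lay above these backgrounds, but no test of the list was run. Its medians were -0.03 and 0.04 on the log2 scale. Ppp1r3c, which targets a phosphatase to glycogen, rose by 2.33 with trametinib and by 2.23 in the combination. It measured 0.255 to 0.707 CPM in controls, near the detection limit, 1.09 to 3.00 CPM with trametinib and 1.82 to 2.32 CPM in the combination. With cediranib it was 0 to 0.189 CPM. Ppp1r3c thus passed the filter on low counts only through the groups in which it was called higher, so these calls carry little weight. Selenbp1, a selenium-binding protein, rose by 1.49 and 1.92. Heme oxygenase Hmox1 fell by 2.43 and 2.12, and the vessel peptide Apln fell by 1.51 and 1.44. In the combination the collagen crosslinker Lox fell by 3.50 and the lipid droplet coat Plin2 fell by 1.27. Vegfa, the ligand of the receptors that cediranib blocks, was 407, 210 and 439 CPM in controls and differed by -0.30 with trametinib (adjusted p = 0.657 in edgeR). These genes did not move in 1 direction. Several are also made by endothelial cells, of the tumor or of vessels, or by macrophages. Markers of these cells differed between groups, and their part was not tested. Macrophage markers summed to 386 to 656 CPM in controls, 295 to 397 CPM with trametinib and 164 to 297 CPM in the combination.

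Of 9 further HIF regulators tested, Egln2, another prolyl hydroxylase, rose by 0.59 in the combination. Of 12 genes tested at the entry of pyruvate into mitochondria, the phosphatase Pdp1, which activates pyruvate dehydrogenase, rose by 0.87. Of 8 genes of the pentose phosphate pathway, G6pdx, its first enzyme, fell by 0.64 in the combination (adjusted p = 0.0473 in edgeR). In the combination against control, 9.98% of all genes were called. None of these 3 lists had a call for trametinib or cediranib alone, and none of the 9 further glycolytic isoenzymes tested had one in any comparison.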

How the data were processed

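RNA sequencing of 12 SVR xenograft tumors was used, 3 per group, each tumor being assigned from its title. The authors prepared libraries with the TruSeq RNA Exome kit, which captures coding fragments and was chosen because the RNA was degraded. They used bcl2fastq 1.8.4 to sort reads by library and write read files, STAR 2.7.1a for alignment to GRCm38 and featureCounts 1.6.0 for the counts of each gene. The deposited values are raw counts, without normalization. Not given in the sources used here are the strand setting, the annotation release, the probe positions and how reads with several positions were handled, so reads shared with overlapping or near-identical genes cannot be told apart. Of the 34 genes, 14 share exon bases with another gene of GENCODE M21, 15.3% for Pkm and 10.8% for Pfkm. Counts of the copy Eno1b came to 1.80% of those of Eno1. One name, Aldoa, had 2 identifiers, and the one with the counts was used.

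Genes were filtered with filterByExpr (minimum count 10, minimum total 15), scaled by TMM and tested by quasi-likelihood in edgeR 4.0.16 (R 4.3.3), all 12 libraries in 1 fit with 8 residual degrees of freedom. The biological coefficient of variation was 27.2%. A gene was called at a Benjamini-Hochberg FDR of 0.05 over the 12897 genes tested, and the calls that also reach the study's log2 fold change of 1.5 are given. Standard errors follow from the F statistic, and 95% intervals use the t quantile of 2.18. Levels per kilobase divide CPM by the gene length in the deposited table. Groups not overlapping means that every tumor of one group lay above every tumor of the other. The heatmap used log2 CPM with a prior count of 2. Libraries held 9478865 to 11666094 counts, and 0 pairs of libraries were identical. The test was checked on simulated data. DESeq2 1.42.0 and further settings served as alternatives. All 34 genes and the called genes of the further lists were named, except for 1 item that is not reported here. The genes and lists were chosen with earlier results of these data known. The contrasts of 6 against 6 tumors, and leaving out both muscle-rich libraries, were added after the data were seen.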

Additional observations from a re-analysis of the deposited data

How the results depend on the processing

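Counts of called genes among the 31 changed with the processing, as did those of all genes, given here in brackets. For trametinib against control, 2 genes were called in the main analysis (789). Their number was 6 without a filter on low counts (1690), 1 without both muscle-rich libraries (311), 0 with only the libraries of the groups compared (639), and 0 to 1 when single libraries were left out. For the combination against control, 1 (1287) became 4 without the filter (2390), 2 with DESeq2 (1889), 2 with the likelihood ratio test (1693), 0 with an epidermal score as covariate (100), and 0 to 1 without single libraries. For cediranib against control, 0 (0) became 1 without the filter (489). For the combination against trametinib, 0 (125) stayed 0 with the epidermal score (3) and without single libraries (0 to 22). It became 2 without the filter (1411) and 1 each with DESeq2 (717), the likelihood ratio test (634) and only the groups compared (355). For the combination against cediranib, 0 (991) became 5 without the filter (1722), 1 each with the same 3 settings (1526, 1281 and 684), and 0 to 1 without single libraries. The interaction went from 0 (0) to 1 without the filter (373). For tumors with against without trametinib, 2 (2158) became 9 without the filter (2647), 4 with DESeq2 (2573) and 1 to 3 without single libraries. For cediranib 0 (100) became 3 without the filter (1281) and stayed 0 without single libraries (1 to 355). The filter removes genes with few counts, and the cause of its effect was not tested. Scaling by size factors moved none of these counts by more than 1.5 times. Library totals moved the median of all genes by 0.13 for the combination against control.

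Replicate numbers are shared between groups, but the 18 pairs of libraries with the same number had correlations of their deviations between -0.219 and 0.356, and 4 of 12 libraries correlated best with their own number, so the numbers were not taken as pairs. With the replicate block, 1 gene was called for trametinib against control (Hk2, with Slc2a3 at an adjusted p of 0.0634 in edgeR; 719 of all genes), 0 for the combination against control (1171), and 1 for tumors with against without trametinib (1997).

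With 3 tumors a group, the 95% interval lay within 1 on either side of 0 on the log2 scale for 19 of the 31 genes with trametinib, 24 with cediranib and 20 with the combination. For the other genes the interval did not exclude a 2-fold change. Some of them have wide intervals, and some have an estimate near 2-fold, as Hk2 with trametinib (-0.99) and Pfkfb4 in the combination (1.01). Low counts, 3 to 21 a library for Car9 and 3 to 60 for Slc2a3, limit those genes most.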
